A study of Rattus norvegicus with 12 samples.

Results

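The transcripts described here belong to 10 genes that restrain MAP kinase signalling: the dual-specificity phosphatases Dusp1, Dusp2, Dusp4, Dusp5, Dusp6 and Dusp8, the Sprouty genes Spry1, Spry2 and Spry4, and the Sprouty-related gene Spred1. They were taken from a list of names that was chosen with earlier results of these data known. Shares of all genes beside their counts are therefore descriptive and no independent test. For each gene the array row that the platform annotation pairs with that gene alone was used, and each of the 10 genes had 1 such row among 18166 genes in all. All 10 were above the background limit of 5.34 (log2) on all 12 arrays.

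Growth factors and stress signals reach the nucleus through the MAP kinases ERK, JNK and p38, which are switched on by phosphorylation of a threonine and a tyrosine. Dual-specificity phosphatases remove both phosphates. Sprouty and Spred proteins act further up, between receptor tyrosine kinases and Raf. Several of these genes are themselves transcribed in response to MAP kinase activity, which makes their RNA a widely used readout of a feedback loop, in astrocytes as in other cells.

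Transcript levels were measured in primary astrocytes from the cerebral cortex of Sprague-Dawley rats 1 day old, on 12 arrays in 4 groups of 3. The groups were SHP siRNA with interferon-γ and a compound that the labels call GW (siSHP_IFNg_GW), control siRNA with interferon-γ and GW (siCon_IFNg_GW), control siRNA with interferon-γ (siCon_IFNg), and control siRNA alone (siCon). All groups were transfected with siRNA, and the treatments lasted 3 h. Per the labels, 4 of the arrays belong to an earlier series, without saying which. Values are expression on a log2 scale as the authors deposited them, with the base inferred from their range (1.01 to 13.43), and a difference of 1 is a factor of 2 in level. The labels do not state whether the arrays of a group came from separate cultures, and the spread behind each p-value may therefore be technical. GW alone, and SHP siRNA without GW, were not among the conditions of the 12 arrays.

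The gene for small heterodimer partner, Nr0b2, was taken as the target of the SHP siRNA. Its value lay between 4.59 and 5.12 on the 12 arrays, below the background limit in every one, so the silencing could not be checked. Astrocyte markers had medians of 10.67 to 11.45 per array. The cultures also held microglial RNA: the 8 microglia markers had medians of 8.62 to 9.95 per array, against 6.53 for all genes, although serum-free medium had been used for 2 days to deplete microglia. In such mixed RNA, fewer cells of a type and less RNA per cell cannot be told apart. The arrays carry title numbers 1 to 3 in each group, and deviations from the group means ran together within a number (across genes, r was at least 0.63 within number 1, 0.48 within number 2 and 0.43 within number 3). The arrays numbered 1 stood apart from the others in these data. Each result is therefore given over all 12 arrays. Values with the title number as a block follow where they change the call, and values without number 1 where only they do. Of the feedback genes, Dusp1 and Dusp2 differed most by number: in siCon_IFNg the array numbered 1 exceeded the mean of the other two by 4.10 for Dusp1 and by 3.27 for Dusp2.

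**Figure D1:**
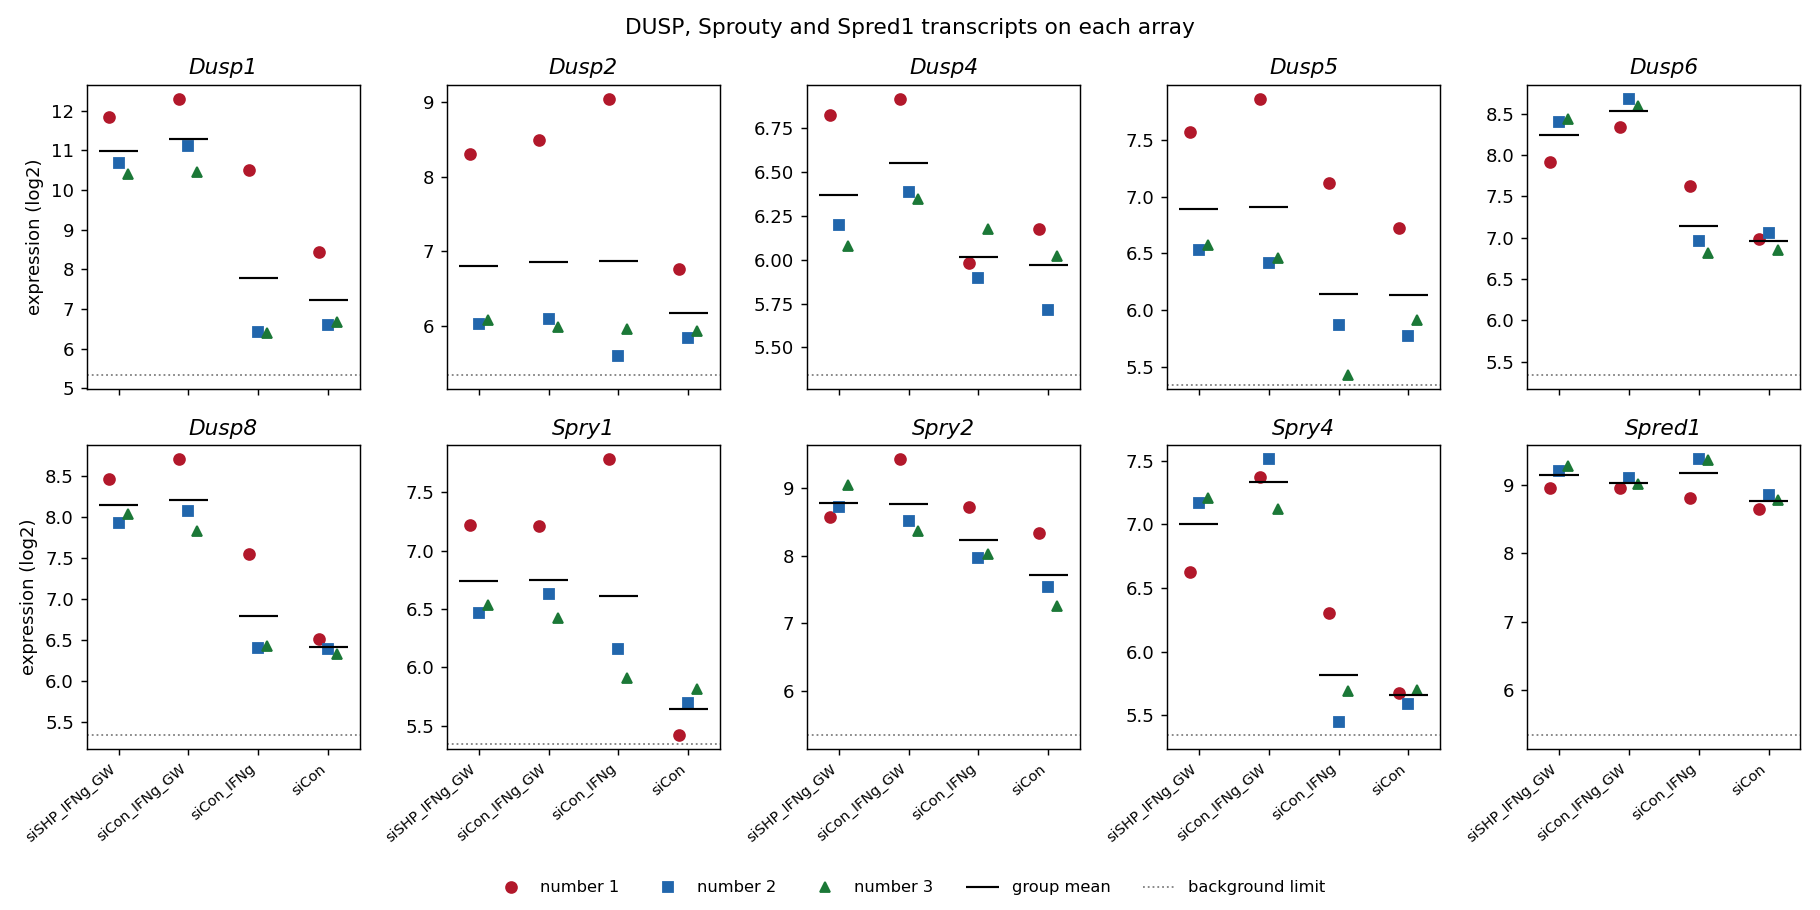
Expression (log2) of the 10 genes on each of the 12 arrays, by group, with the title number as colour and shape, the group mean as a bar and the background limit of 5.34 as a dotted line. For Dusp6, Dusp8 and Spry4 all arrays with GW lie above all arrays without it, and for Dusp1 the siCon_IFNg array numbered 1, at 10.51, lies far above the other two.

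The sequence before the transcription start is shown for the 3 genes with the lowest p under GW or the largest difference, and for Dusp5, which holds a doubled motif. Of the 10 genes, 9 were matched by symbol in RefSeq (build GRCr8), and Dusp4 is named only. The 250 bases before the start are given 5′ to 3′ on the gene's strand, in lower case, with matches to any of 4 patterns in capitals. These are the cyclic AMP response element TGACGTCA or its core TGACG, which overlap, the AP-1 site TGACTCA, the CArG box, which serum response factor binds, and the interferon-γ activated site TTCNNNGAA, each on both strands.
Dusp6, chr7:35979354-35979603, plus strand: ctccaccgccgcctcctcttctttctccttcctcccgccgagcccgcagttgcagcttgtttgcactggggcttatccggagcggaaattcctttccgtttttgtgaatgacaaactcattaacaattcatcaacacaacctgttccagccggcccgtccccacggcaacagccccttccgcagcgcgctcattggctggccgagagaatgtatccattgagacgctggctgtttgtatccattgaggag
Spry4, chr18:30702547-30702796, minus strand: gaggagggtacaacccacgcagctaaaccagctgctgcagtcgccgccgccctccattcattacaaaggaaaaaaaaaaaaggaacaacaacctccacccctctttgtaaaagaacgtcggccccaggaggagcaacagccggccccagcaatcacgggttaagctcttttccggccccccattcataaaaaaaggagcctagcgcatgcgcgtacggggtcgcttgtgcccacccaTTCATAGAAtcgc
Dusp1, chr10:17184603-17184852, plus strand: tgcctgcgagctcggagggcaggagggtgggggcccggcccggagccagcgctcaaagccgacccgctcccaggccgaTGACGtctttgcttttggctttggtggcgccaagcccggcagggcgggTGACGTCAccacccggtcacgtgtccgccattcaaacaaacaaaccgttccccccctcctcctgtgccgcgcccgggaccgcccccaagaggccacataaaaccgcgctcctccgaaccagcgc
Dusp5, chr1:262543524-262543773, plus strand: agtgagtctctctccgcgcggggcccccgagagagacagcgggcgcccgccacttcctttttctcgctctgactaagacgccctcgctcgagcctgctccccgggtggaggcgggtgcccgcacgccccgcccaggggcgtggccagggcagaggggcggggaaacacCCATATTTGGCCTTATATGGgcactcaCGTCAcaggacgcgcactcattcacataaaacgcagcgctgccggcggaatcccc
Motifs were searched in the 300 bases from 250 before to 50 after the start. The full element TGACGTCA was found in 1 of 9 windows, that of Dusp1, at bases -124 to -117 with the start counted as 0, and in 1.83% of all 33469 windows. The core TGACG was in 4 of 9 (Dusp1, Dusp2, Dusp5 and Spry2) and in 21.2% of all windows. The CArG box was in 1 of 9, Dusp5, with adjacent matches at -82 to -73 and at -72 to -63, and in 1.64% of all. Spry4 alone of the 9 held TTCNNNGAA, at -13 to -5, against 8.87% of all windows. The EGR site GCGGGGGCG was in 2 of 9 (Dusp2 and Dusp8) and in 2.73% of all. The AP-1 site was in 0 of 9 windows and in 4.63% of all. The TATA box, as TATAAA, was in 0 of 9 and in 14.2% of all. The ETS site, as CCGGAAG, was in 0 of 9 and in 8.75% of all. The window of Dusp6 held none of the searched motifs. These matches describe letters only and were not tested for binding.

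To see what GW changed in cells that had received interferon-γ, siCon_IFNg_GW was set against siCon_IFNg. Spry4 and Dusp6 rose with GW, each by more than the spread between arrays. Dusp1 and Dusp8 had differences of 3.51 and 1.41, which did not pass over all 12 arrays and passed with the title number as a block or without number 1. In all, 2 of 10 genes were higher and 0 lower by limma over all 12 arrays, against 0.633% and 0.253% of all genes tested. With the block 5 of 10 were higher, against 3.64% of all genes, and without number 1 the counts were 6 higher and 1 lower, against 6.47% and 4.98%. Groups did not overlap for 4 of 10, all higher, against 8.05% of all genes. The median difference was 0.65 over the 10 genes and 0.003 over all genes.

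Dusp6 encodes a cytoplasmic phosphatase that acts mainly on ERK. Its values on arrays 1, 2 and 3 were 8.33, 8.68 and 8.59 in siCon_IFNg_GW, against 7.62, 6.96 and 6.82 in siCon_IFNg. Every GW array exceeded every array without GW. With 3 arrays in each group, the rise was 2.63-fold (difference 1.40 on the log2 scale, SE 0.21; adjusted p = 0.0149 by limma). Its 95% interval was 0.94 to 1.86. It was 0.71 within number 1 and 1.72 and 1.77 within numbers 2 and 3.

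Spry4 encodes a Sprouty protein, an inhibitor of receptor tyrosine kinase signalling. It read 7.37, 7.51 and 7.12 in siCon_IFNg_GW, against 6.30, 5.45 and 5.69 in siCon_IFNg. The groups did not overlap, and the array numbered 1 was the highest of those without GW. The rise was 2.86-fold (log2 1.52, SE 0.22, limma adjusted p = 0.0132), and it was present within each number (1.06, 2.06 and 1.43). The calls of Dusp6 and Spry4 were both lost without siCon_IFNg replicate 2 or 3 or siCon_IFNg_GW replicate 2 (limma adjusted p = 0.0616 to 0.081), and that of Dusp6 also without siCon_IFNg_GW replicate 3 (0.0622). Both were also lost when only the 6 arrays of these groups were fitted (limma adjusted p = 0.154 for Dusp6 and 0.131 for Spry4).

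Dusp1, a nuclear phosphatase of p38, JNK and ERK and a classical immediate-early gene, had the widest range. Its levels were 12.30, 11.11 and 10.44 in siCon_IFNg_GW, against 10.51, 6.41 and 6.40 in siCon_IFNg. The groups overlapped through a single array, siCon_IFNg replicate 1, which was slightly above siCon_IFNg_GW replicate 3. The difference was 3.51 (SE 1.01), or 11.4-fold, and did not pass over all 12 arrays (limma adjusted p = 0.168). It passed with the block (0.00404), without number 1 (4.37, adjusted p = 9.43e-06) and without siCon_IFNg replicate 1 alone (4.88, adjusted p = 0.00662).

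Dusp8, a phosphatase that prefers JNK and p38, had 8.71, 8.07 and 7.84 in siCon_IFNg_GW, against 7.56, 6.41 and 6.43 in siCon_IFNg. All GW arrays were higher than all others. The difference of 1.41 (SE 0.31, 2.65-fold) missed the threshold (limma adjusted p = 0.0708). It passed with the block (0.00199), without number 1 (1.54, adjusted p = 6.43e-05) and without siCon_IFNg replicate 1 alone (1.79, adjusted p = 0.00647). It was 1.15, 1.66 and 1.41 within the numbers.

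Dusp5, a nuclear phosphatase specific for ERK, had 7.86, 6.42 and 6.46 in siCon_IFNg_GW, against 7.11, 5.87 and 5.43 in siCon_IFNg. The groups overlapped, with both arrays numbered 1 high, while within each number the GW array was higher (0.74, 0.54 and 1.02). The difference was 0.77 (SE 0.51, limma adjusted p = 0.659; 0.0169 with the block and 0.00953 without number 1).

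The other nuclear phosphatases had smaller differences. Dusp4, which acts on ERK and JNK, had 6.92, 6.39 and 6.35 in siCon_IFNg_GW, against 5.98, 5.90 and 6.17 in siCon_IFNg, without overlap (difference 0.53, SE 0.22, limma adjusted p = 0.357; 0.0655 with the block). Dusp2, known from activated immune cells, had 8.49, 6.09 and 5.98 in siCon_IFNg_GW, against 9.05, 5.60 and 5.96 in siCon_IFNg. Its difference was -0.02 (SE 0.97, 95% interval -2.15 to 2.12), with -0.56, 0.48 and 0.02 within the numbers. In both groups it was high on the array numbered 1.

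Among the other Sprouty and Spred genes no call was made over all 12 arrays or with the block. Spry2 had 9.42, 8.52 and 8.36 in siCon_IFNg_GW, against 8.71, 7.96 and 8.02 in siCon_IFNg (difference 0.54, SE 0.34, limma adjusted p = 0.63). Spry1 had 7.21, 6.63 and 6.42 in siCon_IFNg_GW, against 7.78, 6.16 and 5.91 in siCon_IFNg, so that the GW array was lower within number 1 (-0.58) and higher within numbers 2 and 3 (0.47 and 0.52). Without number 1 the difference of Spry1 was 0.49 (adjusted p = 0.0299; 0.959 over all 12 arrays). Spred1, which blocks Ras at the membrane together with neurofibromin, had 8.95, 9.10 and 9.01 in siCon_IFNg_GW, against 8.80, 9.37 and 9.36 in siCon_IFNg. Its difference of -0.16 (SE 0.15, limma adjusted p = 0.82) was -0.31 without number 1 (0.0431).

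**Figure D2:**
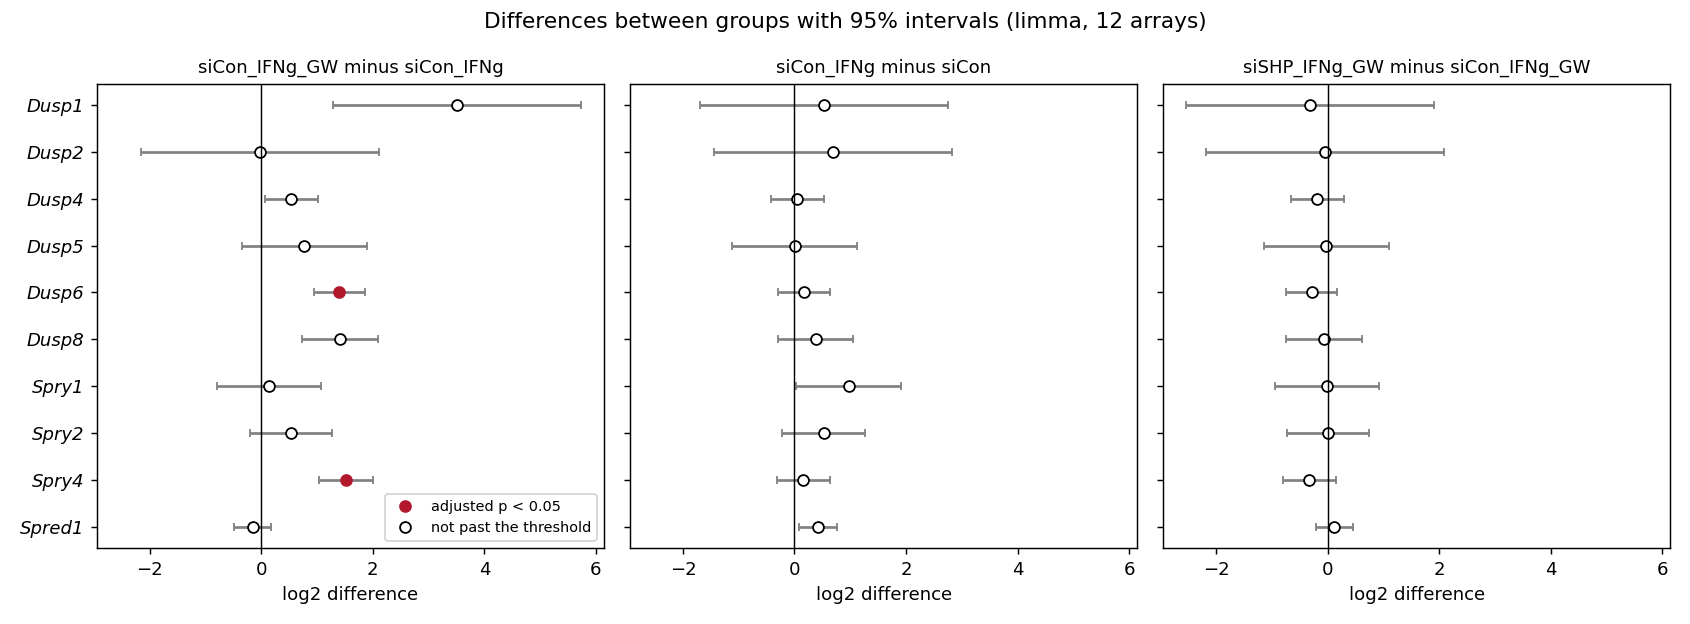
Log2 differences of the 10 genes in 3 comparisons, with 95% intervals from limma over 12 arrays; filled points passed an adjusted p under 0.05 over all genes. In siCon_IFNg_GW minus siCon_IFNg, Dusp6 (1.40) and Spry4 (1.52) passed, and 0 of 10 genes passed in the other comparisons shown.

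The comparison of siCon_IFNg with siCon asks what interferon-γ changed on its own. Of the 10 genes 0 passed by limma, against 0.121% of all genes, and 0 passed with the block, against 0.936% of all genes. An unadjusted p under 0.05 was reached by 2 of the 10 (Spred1 and Spry1), against 999 of all 18166 genes. Spred1 had 8.80, 9.37 and 9.36 in siCon_IFNg, against 8.64, 8.85 and 8.78 in siCon. The arrays of siCon_IFNg numbered 2 and 3 were above all of siCon, and the one numbered 1 was within its range. The difference was 0.42 (SE 0.15, limma adjusted p = 0.695; 0.109 with the block), and without number 1 it was 0.55 (0.00631), the single call there, with 3.05% of all genes higher. Spry1 had 7.78, 6.16 and 5.91 in siCon_IFNg, against 5.42, 5.69 and 5.82 in siCon. These groups did not overlap, as for 3.59% of all genes with the higher level in siCon_IFNg, but most of the difference of 0.97 (SE 0.42, limma adjusted p = 0.867) lay in number 1.

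For several phosphatases the difference lay mainly in number 1. For Dusp1 the difference was 2.06 within number 1, against -0.19 and -0.26 within numbers 2 and 3. For Dusp2 it was 2.28, against -0.24 and 0.03. For Dusp8 it was 1.04, against 0.01 and 0.09, and for Dusp6 0.63, against -0.09 and -0.03. Over all 12 arrays all 10 differences were positive with a median of 0.40 (-0.03 over all genes), and without number 1 the median of the 10 was -0.0042. For Spry2 the numbers were closer together (0.38, 0.43 and 0.77), with a difference of 0.53 (SE 0.34, limma adjusted p = 1; 0.438 with the block; 0.053 without number 1).

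**Figure D3:**
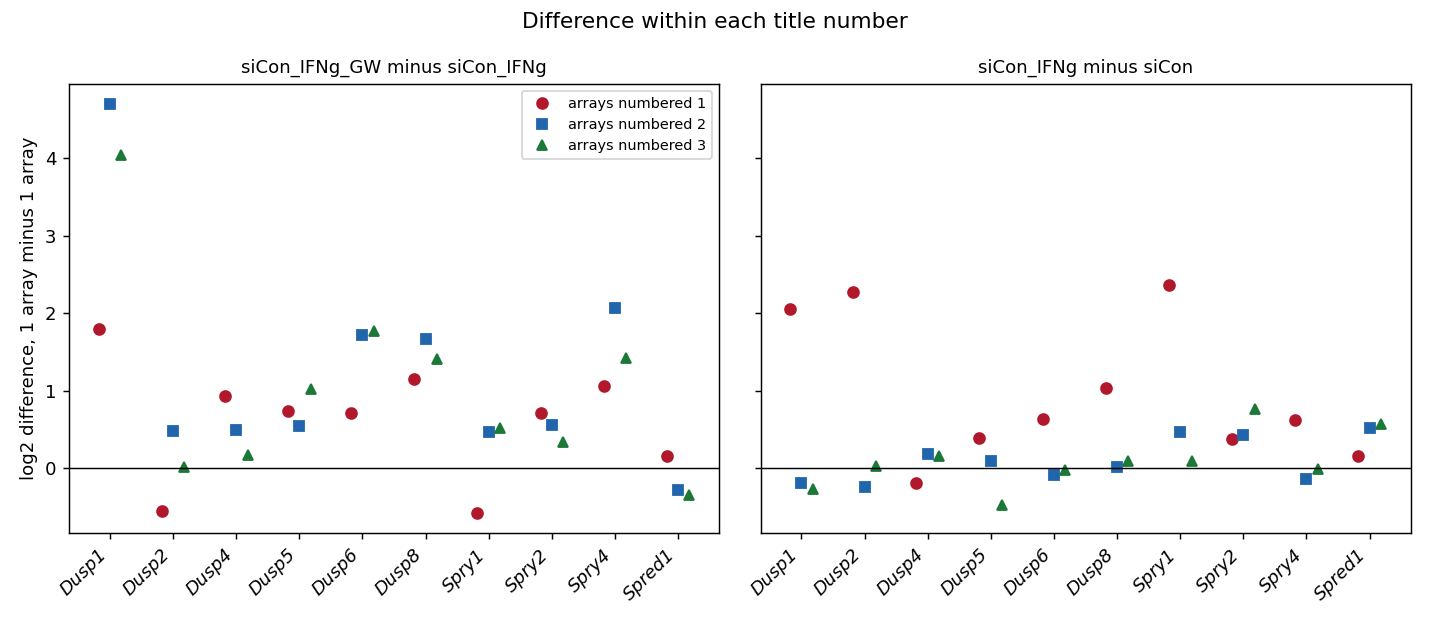
Log2 difference of 1 array from 1 array within each title number, for GW added to interferon-γ (left) and interferon-γ alone (right). Within numbers 2 and 3, Dusp1 differed by 4.70 and 4.04 with GW and by -0.19 and -0.26 with interferon-γ, while within number 1 the 2 differences were 1.79 and 2.06.

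The comparison of siSHP_IFNg_GW with siCon_IFNg_GW asks what SHP siRNA changed in the presence of both agents. None of the 10 genes passed by limma, 0 had an unadjusted p under 0.05, and 0 passed with the block or without number 1. Of all genes 0% passed over 12 arrays (416 had an unadjusted p under 0.05), and 1.47% passed without number 1. Spry4 had 6.63, 7.17 and 7.21 in siSHP_IFNg_GW, against 7.37, 7.51 and 7.12 in siCon_IFNg_GW. The groups overlapped, and the difference of -0.33 had a 95% interval of -0.81 to 0.15. Dusp6 had 7.91, 8.40 and 8.43 in siSHP_IFNg_GW, against 8.33, 8.68 and 8.59 in siCon_IFNg_GW. It was lower within each number (-0.42, -0.28 and -0.16), and its interval ran from -0.75 to 0.17. For Dusp1 the difference was -0.31 (-0.47, -0.44 and -0.04 within the numbers), with an SE of 1.01 over all 12 arrays and 0.49 with the block. Spry2 differed in direction by number (-0.85, 0.20 and 0.69), around a difference of 0.01 (SE 0.34). The remaining genes differed by -0.18 to 0.12. In all 10 genes the groups overlapped, but no share of all genes is given for this comparison, so nothing is drawn from it.

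The siSHP_IFNg_GW arrays are a separate set that also received GW, and 3 of 10 genes (Dusp6, Dusp8 and Spry4) had all of them above all siCon_IFNg arrays, against 6.33% of all genes. Dusp8 had 8.47, 7.93 and 8.04 in siSHP_IFNg_GW, against 7.56, 6.41 and 6.43 in siCon_IFNg. Mean differences of siSHP_IFNg_GW from siCon_IFNg were 1.11 for Dusp6, 1.35 for Dusp8, 1.19 for Spry4 and 3.20 for Dusp1, where the groups overlapped through number 1. They were 0.75 for Dusp5, 0.55 for Spry2, 0.35 for Dusp4, 0.12 for Spry1, -0.03 for Spred1 and -0.06 for Dusp2. This pair of groups differs in both siRNA and GW and was not tested, and it uses the same siCon_IFNg arrays as the comparison of GW.

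Against cells with control siRNA alone, siCon_IFNg_GW was higher in 3 of 10 genes by limma and lower in 0, against 0.584% and 0.281% of all genes. With the block 7 of 10 were higher, against 2.94% of all genes, and without number 1 7 of 10, against 3.31%. In 8 of 10, all but Dusp2 and Dusp5, the groups did not overlap, against 8.1% of all genes higher in this way. Dusp8 had 8.71, 8.07 and 7.84 in siCon_IFNg_GW, against 6.52, 6.39 and 6.34 in siCon. Its rise of 3.45-fold (log2 1.79, SE 0.31, limma adjusted p = 0.0266) passed here, where the arrays of siCon lay close together. Centring each array on its median over all rows took it to an adjusted p of 0.057, and leaving out any of 5 arrays (siCon replicates 1, 2 or 3, or siCon_IFNg_GW replicates 1 or 2) took it to 0.0686 to 0.126. Fitting only the 6 arrays of these groups took it to a limma adjusted p of 0.0549. Dusp6 rose by 1.57 (SE 0.21, limma adjusted p = 0.00851; 0.0523 without siCon replicate 3 and 0.0589 without siCon_IFNg_GW replicate 2). Spry4 rose by 1.68 (SE 0.22, limma adjusted p = 0.0075; 0.0552 without siCon replicate 2 and 0.054 without siCon_IFNg_GW replicate 2). Dusp1 had 12.30, 11.11 and 10.44 in siCon_IFNg_GW, against 8.45, 6.60 and 6.66 in siCon, with no overlap. Its difference was 4.05 (SE 1.01, limma adjusted p = 0.108; 0.00208 with the block) and was alike within the numbers (3.85, 4.51 and 3.78).

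Spry2 and Spry1 also stood above siCon in this comparison without overlap. Spry2 had 9.42, 8.52 and 8.36 in siCon_IFNg_GW, against 8.33, 7.54 and 7.25 in siCon (difference 1.06, SE 0.34, limma adjusted p = 0.216; 0.0324 with the block), with 1.10, 0.98 and 1.11 within the numbers. Spry1 had 7.21, 6.63 and 6.42 in siCon_IFNg_GW, against 5.42, 5.69 and 5.82 in siCon (difference 1.11, SE 0.42, limma adjusted p = 0.326; 0.0691 with the block), and it passed without number 1 (0.77, adjusted p = 0.00918). Dusp4 and Dusp5 had 0.58 and 0.77 (adjusted p = 0.304 and 0.655; 0.0487 and 0.0155 with the block). Dusp2 and Spred1 had 0.67 and 0.26 and did not pass in either way. The comparison shares its arrays with those above and is no separate evidence for them.

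In 8 of 10 genes, all but Dusp2 and Spred1, both groups with GW had the highest means, siCon_IFNg came next and siCon was lowest. For Dusp2 and Spred1 siCon_IFNg had the highest mean and siCon the lowest. For Spry4 the group means were 7.00 ± 0.32 in siSHP_IFNg_GW, 7.33 ± 0.20 in siCon_IFNg_GW, 5.82 ± 0.44 in siCon_IFNg and 5.66 ± 0.06 in siCon (SD, n = 3 each). The gap between the groups with GW and siCon_IFNg exceeded these SDs, whereas siCon_IFNg and siCon did not differ beyond theirs. For Spred1 the means were 9.14 ± 0.17 in siSHP_IFNg_GW, 9.02 ± 0.07 in siCon_IFNg_GW, 9.18 ± 0.32 in siCon_IFNg and 8.76 ± 0.10 in siCon (SD, n = 3 each). The 3 groups with interferon-γ lay within their spread of each other and siCon was lowest.

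After the mean of each title number was subtracted, Dusp1, Dusp6, Dusp8 and Spry4 varied together over the 12 arrays, with Pearson r of 0.96 to 0.99 between them, and Dusp5 followed them at 0.91 to 0.95. Spry2 was at 0.81 to 0.85 with these 4 genes. Dusp2 and Spry1 had r = 0.92 with each other and 0.42 to 0.54 (Dusp2) and 0.63 to 0.73 (Spry1) with the 4. Spred1 had 0.22 to 0.37 with the 4 and its highest value, 0.60, with Spry2. These values describe 12 arrays that share treatments and, for the 4 genes, fall into arrays with and without GW. Dusp2 and Spry1 varied most among the arrays numbered 1. There Dusp2 was at 8.31, 8.49 and 9.05 in siSHP_IFNg_GW, siCon_IFNg_GW and siCon_IFNg, against 6.77 in siCon. In the same order Spry1 was at 7.22, 7.21 and 7.78, against 5.42.

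**Figure D4:**
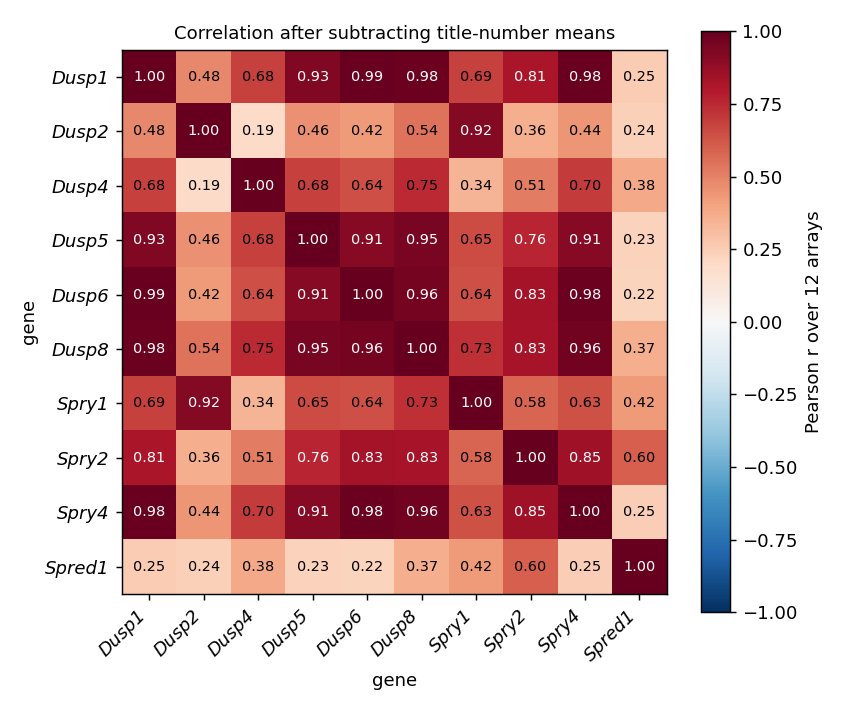
Pearson r between the 10 genes over 12 arrays after the mean of each title number was subtracted. Dusp1, Dusp6, Dusp8 and Spry4 have r of 0.96 to 0.99, Dusp2 and Spry1 have 0.92, and Spred1 is at 0.22 to 0.60 with the others.

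By the same measure the gene most like each of the 10 was named among 12424 genes whose mean over the 12 arrays was above the background limit. For Dusp6 it was Dusp1 (r = 0.99). For Spry4 it was the immediate-early gene Ier2 (0.99), and for Dusp8 it was Ppp1r15a, which directs a phosphatase to the translation factor eIF2α (0.99). For Dusp1 it was Ints2, of the Integrator complex (0.99), although its group means spanned only 7.75 to 8.25. For Dusp2 it was Ifnb1, the gene of interferon-β (0.98), whose values in siCon_IFNg were 8.35, 4.74 and 4.76, high like those of Dusp2 on the array numbered 1. Ifnb1 was above the background limit on only 4 of the 12 arrays. Among the arrays numbered 1 it was at 7.54 in siSHP_IFNg_GW and 7.51 in siCon_IFNg_GW, and below the limit in siCon. On the arrays numbered 2 and 3 it lay between 4.72 and 5.51, so its r rests mostly on the arrays numbered 1. Spry1 was most like Pcgf3 (0.96), Spry2 like Enc1 (0.98), Dusp4 like Nckap5 (0.95), Dusp5 like Swt1 (0.97) and Spred1 like the zinc finger gene Ikzf5 (0.99).

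Other genes of the pathway were read from 6 lists. For siCon_IFNg_GW against siCon_IFNg, the shares of all genes that were higher and lower were 0.633% and 0.253% over 12 arrays, 3.64% and 2.91% with the block, and 6.47% and 4.98% without number 1. An unadjusted p under 0.05 over 12 arrays, counted below for some lists, was reached by 2065 of all 18166 genes. In this comparison 1 of 11 other Sprouty family and receptor-level feedback genes was higher and 0 lower (median 0.06). This was Errfi1, an inhibitor of the EGF receptor, at 10.53 ± 0.15 in siCon_IFNg_GW and 9.07 ± 0.02 in siCon_IFNg (SD, n = 3 each; difference 1.45, SE 0.18, limma adjusted p = 0.00766). It passed under each alternative run (largest adjusted p = 0.0478), and against siCon its difference was 1.54 (adjusted p = 0.00524). With the block 4 of 11 were higher. Among them Spred2, a relative of Spred1, had 0.37 (adjusted p = 0.0792; 0.0275 with the block) and Rasa2, a Ras GTPase-activating protein, 0.45 (0.282; 0.032 with the block).

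Of 15 further dual-specificity phosphatases 13 had a row, and 0 passed with GW over all 12 arrays (3 had an unadjusted p under 0.05; median 0.03), while 3 were higher with the block. Dusp7, a cytoplasmic ERK phosphatase close to Dusp6, averaged 8.97 ± 0.66 in siCon_IFNg_GW and 7.64 ± 0.60 in siCon_IFNg, without overlap (difference 1.33, SE 0.39, limma adjusted p = 0.183; 0.000434 with the block). It was the one gene of this list that also passed for interferon-γ with the block, where it was lower in siCon_IFNg than in siCon (-0.77, adjusted p = 0.964; 0.0132 with the block). Dusp10 and Dusp16, which act on p38 and JNK, had 0.86 and 0.64 with GW (adjusted p = 0.0903 and 0.176; 0.0269 and 0.0239 with the block). Dusp16 rose in siCon_IFNg_GW against siCon (0.97, SE 0.19, limma adjusted p = 0.0417). That call was lost with median centring (adjusted p = 0.128) and without any 1 of 11 arrays, all but siCon_IFNg replicate 1 (0.0519 to 0.192). A fit of only the 6 arrays of these groups also lost it (limma adjusted p = 0.0603).

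Of 17 transcripts known to follow ERK activity 16 had a row. Of these, 1 was higher over all 12 arrays and 8 with the block, against 0.633% and 3.64% of all genes, and the median was 0.77. The list was divided. Etv1, Etv4, Etv5, Ccnd1, Elk3, Plaur and Hmga1 differed only by -0.13 (Etv1) to 0.20 (Etv4), and none of them passed in either way. Fos, part of the AP-1 factor, averaged 11.79 ± 0.58 in siCon_IFNg_GW and 8.34 ± 0.88 in siCon_IFNg (difference 3.46, SE 0.48, limma adjusted p = 0.0125). Its call was lost without siCon_IFNg replicate 2 or 3 or siCon_IFNg_GW replicate 2 (0.0664 to 0.0709). It was also lost when only the 6 arrays of these groups were fitted (limma adjusted p = 0.126). Phlda1 had 1.12 (adjusted p = 0.0665; 0.0168 with the block) and the growth regulator Myc 1.44 (0.094; 0.00406 with the block). Against siCon both passed, with 1.46 for Phlda1 (adjusted p = 0.0223) and 2.07 for Myc (0.0212). The call of Phlda1 was lost without any 1 of the 6 siCon and siCon_IFNg_GW arrays (0.0607 to 0.12) and with median centring (0.0528). That of Myc was lost without siCon replicate 2 or 3 or siCon_IFNg_GW replicate 1 or 2 (0.0889 to 0.119), and in a fit of only the 6 arrays (0.0963). Fos also passed against siCon (3.54, limma adjusted p = 0.0103), but not without siCon replicate 2 or 3 or siCon_IFNg_GW replicate 2 (0.0586 to 0.07). Nor did it pass in a fit of only the 6 arrays (limma adjusted p = 0.0621).

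Of 21 ERK cascade genes 16 had a row, and 0 of these passed with GW over all 12 arrays (2 had an unadjusted p under 0.05; median -0.05), and 2 were higher with the block. These were the kinase gene Braf (0.44, SE 0.09, limma adjusted p = 0.0622; 0.019 with the block) and the FGF receptor adaptor Frs2 (0.38, adjusted p = 0.0922; 0.0223 with the block). Mknk1, a kinase downstream of ERK, had -0.24 (adjusted p = 0.504). Without number 1, 2 genes of the ERK cascade were higher and 2 lower. The lower ones were Nras (-0.51, limma adjusted p = 0.00697) and Ksr1 (-0.57, 0.0147). Of 19 genes of the JNK and p38 cascades 0 passed over all 12 arrays, with or without the block (median 0.01), and 1 was higher and 1 lower without number 1. The lowest p there were those of Mapkapk2 (-0.30), Mapk14, which encodes p38α (-0.42), and Mapk8, which encodes a JNK (0.45), with adjusted p of 0.451 to 0.548. Mapk14 was lower without number 1 (-0.75, limma adjusted p = 0.00126) and without siCon_IFNg replicate 1 alone (-0.71, adjusted p = 0.0365). Of 10 growth factor receptors 0 passed over all 12 arrays (2 had an unadjusted p under 0.05; median 0.05). With the block Met, the receptor for hepatocyte growth factor, was lower (-0.37, adjusted p = 0.345; 0.0244 with the block), while Pdgfrb had 0.40 and Fgfr1 0.12. Without number 1 the count was 3 higher, Pdgfrb among them (0.61, limma adjusted p = 0.00431), and 1 lower. In the comparisons of interferon-γ with siCon and of SHP siRNA with control siRNA, 0 genes of these 6 lists passed over all 12 arrays.

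**Figure D5:**
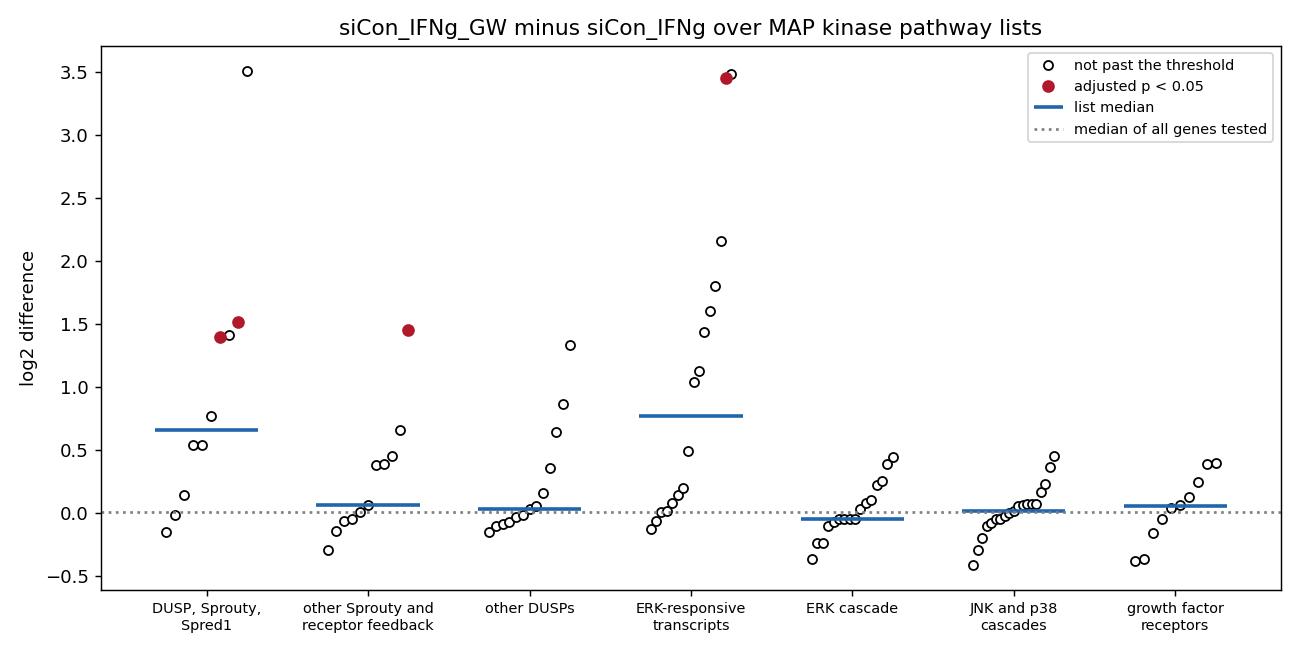
Log2 difference of siCon_IFNg_GW from siCon_IFNg for each gene of 7 lists, in order of size within a list, with the list median as a bar and the median of all 18166 genes as a dotted line; filled points passed over 12 arrays. The medians are 0.65 for the 10 feedback genes and 0.77 for ERK-responsive transcripts, and lie between -0.05 and 0.06 for the other 5 lists.

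Cell type markers were read beside these differences. With GW, 7 of 8 microglia markers had lower means (median -0.49), 0 passed over all 12 arrays and 5 were lower with the block, against 2.91% of all genes. Their log2 summed level was 11.79 to 12.02 in siCon_IFNg_GW, against 12.28 to 12.50 in siCon_IFNg, and all 8 were above background. The part of this shift in the feedback genes was not tested. The 7 astrocyte markers with a row had a median difference of -0.07, with log2 summed levels of 13.46 to 13.93 in siCon_IFNg_GW, against 13.61 to 13.97 in siCon_IFNg. Median differences were -0.01 for 6 oligodendrocyte lineage markers, -0.16 for 6 neuron markers and -0.15 for 5 meningeal and vascular markers. Of these, 0 passed over all 12 arrays or with the block. Without number 1, 1 of each list was lower: Cnp (-0.33, limma adjusted p = 0.0499), Tubb3 (-1.63, 0.000255) and Lum (-1.11, 0.00426). Both means of Lum were below the background limit. Meningeal and vascular markers varied widely by array, with medians of 4.93 to 8.50 within siCon and 4.99 to 8.40 within siCon_IFNg. For Dcn the SE was 1.25 over all 12 arrays and 0.12 without number 1. Against siCon, the microglia markers had a median difference of -0.57 in siCon_IFNg_GW, and 1 of 8, Tyrobp, was lower (-0.92, limma adjusted p = 0.0379), against 0.281% of all genes. With the block 7 of 8 were lower, against 708 of all 18166 genes. Without number 1 it was 4 of 8, against 426 of all genes.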

How the data were processed

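The deposited log2 values of 12 whole-transcript arrays were used. Per the labels' protocols, Trizol RNA was turned into biotin-labelled sense cDNA. For summarisation and normalization by the authors, methods are not given in the sources used here. Scanner files were not used here, so no alternative background correction was run. Of 36685 rows, 18511 name 1 gene in the platform annotation, 575 several and 17599 none. For genes with several rows the row with the highest mean was kept, which left 18166 genes. The background limit was the 95th percentile of the means of 1342 olfactory and vomeronasal receptor genes.

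All 12 arrays were fitted with 4 group means in limma 3.58.1 (R 4.3.3), with Benjamini-Hochberg adjustment over 18166 genes in each of 4 comparisons and a threshold of 0.05. The fit was tested on simulated data drawn without shared deviations of same-numbered arrays, so that test does not cover them. Deviations of same-numbered arrays from their group means correlated above 0.1 in every pair of groups (0.43 to 0.77), so the title numbers were taken to pair the arrays. Their meaning is not stated in the labels. Alternatives were a replicate block, leaving out arrays, other scaling, a filter on dim genes, row means, another prior variance and fits of 6 arrays. The 10 genes and the lists were chosen with earlier results of these data known. From each list the 3 genes with the lowest p for GW and any that passed were named. Promoter sequence came from RefSeq (GRCr8). The number of arrays limits the precision.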

Additional observations from a re-analysis of the deposited data

How the results depend on the processing

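With 3 arrays per group the counts of calls depended on how the arrays numbered 1 were handled and on single arrays. For siCon_IFNg_GW against siCon_IFNg, 2 of 10 genes passed over 12 arrays, 5 with the replicate block, 7 without replicate 1, 0 in a fit of 6 arrays and 0 to 4 when each array was left out in turn. For siCon_IFNg_GW against siCon, 3 passed over 12 arrays, 7 with the replicate block, 7 without replicate 1, 2 in a fit of 6 arrays and 0 to 4 with 1 array left out. For siCon_IFNg against siCon, 0 passed, with 1 without replicate 1 and 0 with any 1 array left out. For siSHP_IFNg_GW against siCon_IFNg_GW, 0 passed in each of the 20 alternatives. Over all genes the calls ran from 4 to 2081 for GW (161 over 12 arrays), 2 to 856 for interferon-γ (22), 0 to 267 for SHP siRNA (0) and 23 to 1242 against siCon (157). The replicate block changed no call of the 10 genes beyond those given with its value. Of the differences of named genes over the alternatives, 1111 kept direction and side of the threshold, 53 fell short of it, 53 newly passed and 43 changed sign. The fit of 6 arrays has fewer degrees of freedom, and the cause of the other shifts was not tested.

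Differences that changed sign were all ones that had not passed over 12 arrays. For interferon-γ, leaving out replicate 1 gave -0.23 for Dusp1, -0.10 for Dusp2, -0.19 for Dusp5, -0.06 for Dusp6 and -0.07 for Spry4. With arrays left out, the ranges were -0.83 to 1.22 for Dusp1, -0.40 to 1.32 for Dusp2, -0.080 to 0.17 for Dusp4, -0.48 to 0.36 for Dusp5, -0.072 to 0.33 for Dusp6 and -0.085 to 0.34 for Spry4. For GW, Dusp2 was 0.017 after quantile normalization, 0.25 without replicate 1 and -0.84 to 1.07 over the fits with arrays left out, where Spry1 ran from -0.22 to 0.72. Dusp2 in siCon_IFNg_GW against siCon ran from -0.15 to 1.11. For SHP siRNA, Dusp2 was 0.02, Dusp5 0.12 and Dusp8 0.03 without replicate 1, Spry1 was 0.0051 with median centring and Spry2 -0.0058 after quantile normalization. With arrays left out the ranges were -0.74 to 0.19 for Dusp1, -0.80 to 0.77 for Dusp2, -0.36 to 0.45 for Dusp5, -0.25 to 0.19 for Dusp8, -0.25 to 0.22 for Spry1 and -0.19 to 0.44 for Spry2.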
